A study of Danio rerio with 15 samples.

Results

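Lysosomes digest what cells take in, and the proteins of their membrane carry the products out, move ions across it and receive the enzymes sorted to the organelle. The 9 genes described here encode membrane, transport and sorting proteins: npc1, npc2, spns1, lamp1, lamp2, mcoln1a, sort1a, cln3 and scarb2a. They were chosen by name from 24609 genes with counts in zebrafish larvae, and all 9 of the 9 were among the 19006 genes tested. In mammals many lysosomal genes are switched on by the related transcription factors Tfeb and Tfe3. The GTPase RagA, encoded by rraga, brings these factors to the lysosome surface, where the kinase mTORC1 can keep them out of the nucleus. Whole larvae hold macrophages, microglia of the brain and gut enterocytes, cells with many lysosomes.

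RNA was sequenced from larvae of the TL strain at 4 days post fertilization, in 5 groups of 3 libraries. The genotypes were wild type and tfeb; tfe3a; tfe3b triple mutants, each both uninjected and injected with zymosan A, and rraga mutants, uninjected only. Zymosan A is made from yeast cell walls and is engulfed by phagocytes. All larvae were raised with PTU, which blocks pigment formation. Injected larvae were looked at by confocal microscopy and frozen, rraga mutants were scored the same way, and no group was injected without zymosan, so injection and zymosan cannot be told apart. The kind of lesion in each mutant line, the number of larvae per library and the time after injection are not given in the sources used here.

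Library totals lay between 12314113 and 17566540 counts, and the mitochondrial genome took 7.99% to 14.01% of them. Replicate 3 of zymosan-injected wild type stood apart from the others of its group. A chi-square of its counts against replicates 1 and 2 gave 25.45 and 23.61 per degree of freedom, against 5.597 between those 2, so calls of the 9 genes, and counts of calls in other genes, that use it are also given without it. Replicate 3 of rraga mutants was apart to a lesser degree, at 11 and 11.82 against 4.446 between replicates 1 and 2. Uninjected triple mutants gave 16.25 between replicates 1 and 2. Of the targeted genes, tfe3b was lower in uninjected triple mutants than in wild type (log2 fold change -3.84 ± 0.87 (SE), edgeR adjusted p = 0.00455), tfeb (0.01 ± 0.20) and tfe3a (-0.42 ± 0.38) did not pass the test, and rraga was higher in rraga mutants (0.83 ± 0.14, adjusted p = 0.000338). With zymosan, tfe3b had 0, 1 and 12 counts in triple mutants and 28, 49 and 50 in wild type (-3.17 ± 0.74, edgeR adjusted p = 0.00556). A lesion can spare the transcript, so the levels of tfeb, tfe3a and rraga are no check of their labels. Markers of macrophages, neutrophils, hepatocytes, enterocytes, neurons, radial glia, muscle, lens and skin were found in every group. In RNA of whole larvae, fewer cells of a type and less RNA per cell cannot be told apart.

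Transcript levels of the 9 genes spanned a wide range when CPM, counts scaled to the size of their library, were divided by the length of the gene model. Averaged over the 5 groups, npc2 stood at 38.7 CPM per kb, above 93.9% of tested genes, and lamp1 at 24.4 CPM per kb, above 90.5%. The middle of the range was held by lamp2 (14.2 CPM per kb), npc1 (12.3), scarb2a (8.29) and spns1 (7.11). The lowest levels were those of cln3 (3.14 CPM per kb), mcoln1a (3.12) and sort1a, which at 0.529 CPM per kb lay above 10.5% of tested genes. No gene listed in the deposited tables overlapped any of the 9. Levels below are CPM scaled by the trimmed mean of M-values (TMM), which allows a gene to be compared between libraries and not with another gene.

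**Figure D1:**
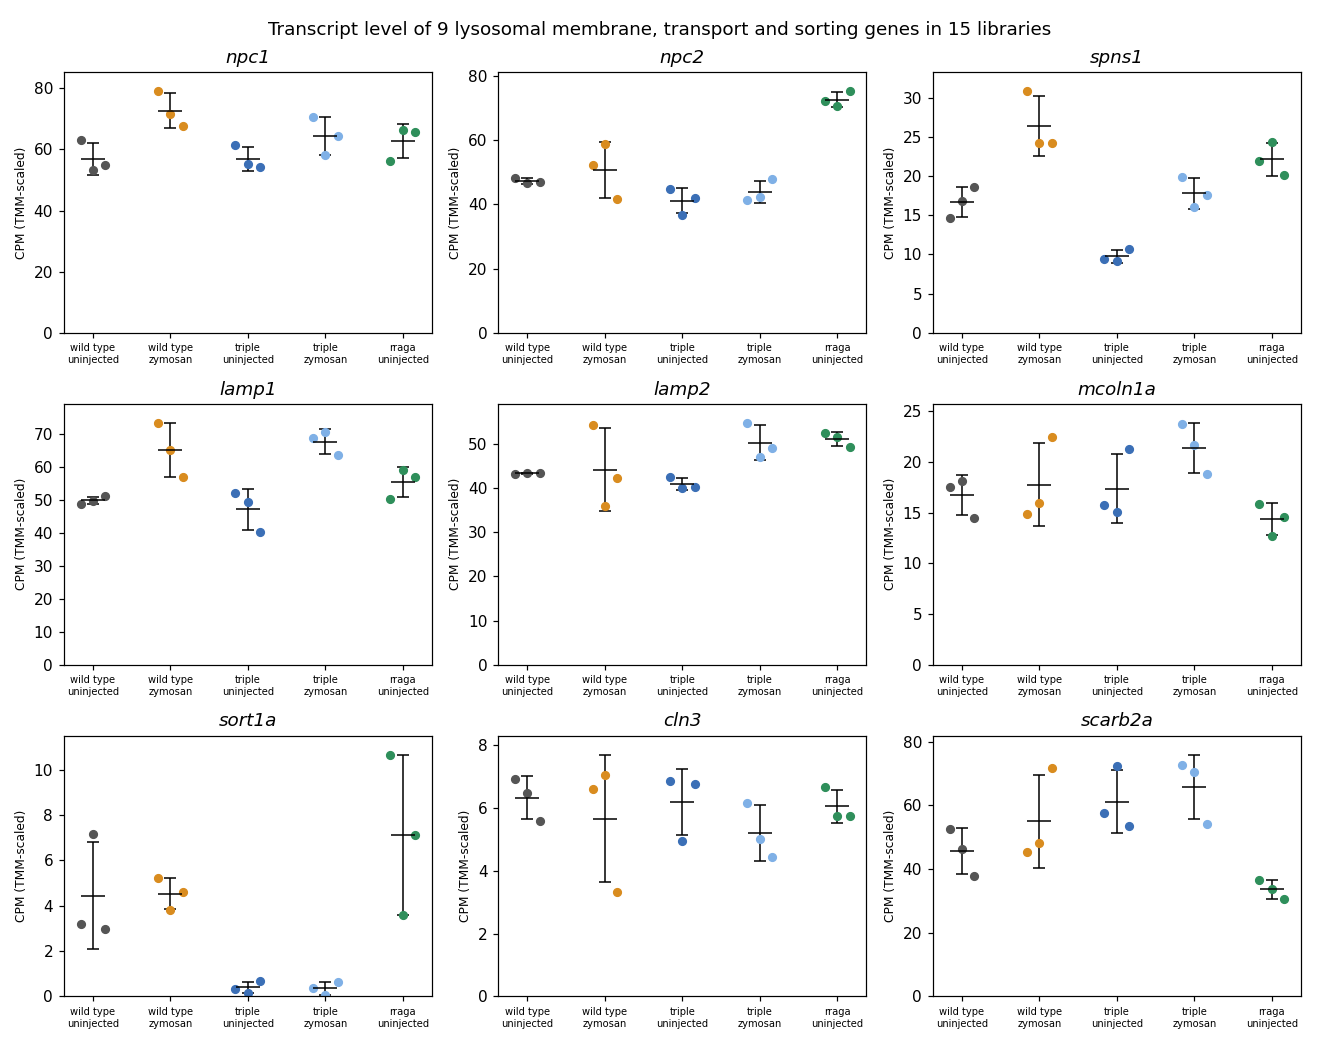
TMM-scaled CPM of each of the 9 genes (y axis, starting at 0 and differing between panels) in the 5 groups (x axis). Points are the 3 libraries of a group and bars the mean ± SD; sort1a lies under 0.7 CPM in all 6 triple-mutant libraries and npc2 above 70 CPM in the 3 rraga libraries.

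A gene was called changed at an adjusted p under 0.05 in edgeR's quasi-likelihood test over all 19006 genes. Of 63 tests, the 9 genes in 7 comparisons, 15 were called, spread over 7 genes. The transporter gene spns1 was called in 5 comparisons, sort1a in 3, npc2 and lamp1 in 2 each, and npc1, lamp2 and scarb2a in 1 each. Neither mcoln1a nor cln3 was called in any.

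Cholesterol freed by digestion leaves the lysosome through Npc2, a soluble carrier in its lumen, and Npc1, the membrane protein that takes it over. Loss of either causes Niemann-Pick type C disease in people. The npc2 gene (ENSDARG00000090912, GRCz11 chr17:43030317-43031828, minus strand) was measured at 48.2, 46.6 and 47.0 CPM in the uninjected wild-type libraries and at 71.97, 70.4 and 75.2 CPM in those of rraga mutants. In uninjected triple mutants it stood at 44.7, 36.8 and 41.97 CPM. All rraga libraries thus lay above, and all triple-mutant libraries below, those of wild type. The increase in rraga mutants was 1.54-fold (log2 fold change 0.62 ± 0.11, adjusted p = 0.000626). The log2 difference of triple mutants from wild type was -0.20 ± 0.12 and was not called (adjusted p = 0.328), while rraga mutants were 1.76-fold above triple mutants (0.82 ± 0.11, adjusted p = 1.19e-05). Those comparisons share the same uninjected libraries. With zymosan npc2 was at 52.1, 58.7 and 41.5 CPM in wild type, beside 41.3, 42.4 and 47.8 CPM in triple mutants, groups that overlap each other and their uninjected counterparts. Without wild-type zymosan replicate 3 the lower level of zymosan-injected triple mutants was called (-0.34, adjusted p = 0.0319; with it -0.21, adjusted p = 0.267). A related gene that the tables name NPC2 (1 of many) starts 8.66 kb from npc2. It held 52 counts in uninjected wild type, 16 in uninjected triple mutants and 105 in rraga mutants, against 1908, 1865 and 3010 for npc2, and reads that match both cannot be assigned with certainty.

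The membrane partner npc1 (ENSDARG00000017180, chr2:3823813-3866971, plus strand) differed little between uninjected groups. The wild-type libraries held 63.0, 53.2 and 54.9 CPM, against 61.4, 55.2 and 54.3 CPM in triple mutants and 56.4, 66.2 and 65.7 CPM in rraga mutants. After zymosan it was at 79.1, 71.6 and 67.5 CPM in wild-type larvae, all 3 libraries above the uninjected ones, and at 70.5, 58.0 and 64.4 CPM in triple mutants, which overlapped theirs. The rise in wild type was 1.27-fold (0.35 ± 0.11, adjusted p = 0.037). It was no longer called when any 1 of 4 of the 6 libraries was left out, uninjected replicate 2 or 3 or zymosan replicate 1 or 2 (adjusted p from 0.0811 to 0.174), and it held without zymosan replicate 3 (0.40, adjusted p = 0.0224). In a fit of the compared groups alone the adjusted p was 0.0524.

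Spns1 exports lysophospholipids, the remains of digested membranes, and zebrafish that lack it accumulate undigested material in lysosomes. Of the 9 genes spns1 (ENSDARG00000011925, chr3:15455319-15475080, minus strand) was called most often. Uninjected wild-type libraries held 14.7, 16.8 and 18.6 CPM, and uninjected triple mutants 9.47, 9.14 and 10.7 CPM, so that the groups did not overlap. After zymosan the wild-type libraries held 30.8, 24.2 and 24.2 CPM, and the triple mutants 19.9, 15.98 and 17.5 CPM, again without overlap. Both zymosan groups lay above the uninjected group of their genotype in every library. In rraga mutants it was at 21.9, 24.4 and 20.2 CPM, also above all uninjected wild-type libraries. The order of the group means ran from wild type with zymosan (26.4 ± 3.81 CPM, SD, n = 3) over rraga mutants (22.1 ± 2.10), triple mutants with zymosan (17.8 ± 1.95) and uninjected wild type (16.7 ± 1.94) to uninjected triple mutants (9.76 ± 0.802). Libraries of zymosan-injected wild type overlapped those of rraga mutants, and libraries of zymosan-injected triple mutants overlapped those of uninjected wild type.

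In tests, spns1 was 1.71-fold lower in uninjected triple mutants than in wild type (-0.77 ± 0.15, adjusted p = 0.000941) and 1.48-fold lower after zymosan (-0.57 ± 0.14, adjusted p = 0.00774). The second difference lost its call without triple-mutant replicate 2 (adjusted p = 0.0567) or wild-type replicate 1 (0.0754) and kept it without wild-type replicate 3 (-0.63, adjusted p = 0.00577). Zymosan raised spns1 1.58-fold in wild type (0.66 ± 0.14, adjusted p = 0.0028; 0.72 without replicate 3, adjusted p = 0.00292). It raised the gene 1.82-fold in triple mutants (0.87 ± 0.15, adjusted p = 0.000208). The interaction of zymosan and genotype, which tests whether the responses differ, was 0.20 ± 0.20 and not called (adjusted p = 0.993). For rraga mutants against wild type the log2 difference was 0.41 ± 0.14 (adjusted p = 0.0545), called only when rraga replicate 3 was left out (0.48, adjusted p = 0.0399). Without that library 2642 of 19342 genes were called there, beside 1899 of 19365 without rraga replicate 1 and 1926 of 19380 without replicate 2. Against triple mutants rraga mutants were 2.27-fold higher (1.18 ± 0.15, adjusted p = 2.19e-06).

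Lamp1 and Lamp2 are heavily glycosylated proteins that line the inner face of the lysosomal membrane, and Lamp2 also serves in fusion with autophagosomes and in autophagy of single proteins. For lamp1 (ENSDARG00000092610, chr9:34380299-34389875, plus strand) the uninjected libraries read 48.8, 49.8 and 51.0 CPM in wild type, against 52.0, 49.2 and 40.1 CPM in triple mutants and 50.3, 59.0 and 56.9 CPM in rraga mutants. After zymosan they read 73.3, 65.0 and 57.0 CPM in wild type, beside 68.8, 70.7 and 63.5 CPM in triple mutants. In both genotypes each zymosan library lay above each uninjected one, while the genotypes overlapped. The increase was 1.3-fold in wild type (0.38 ± 0.11, adjusted p = 0.0292) and 1.44-fold in triple mutants (0.52 ± 0.11, adjusted p = 0.00222), with an interaction of 0.14 ± 0.16 that was not called. The call in wild type was lost when any 1 of 5 of the 6 libraries was left out (adjusted p from 0.0688 to 0.167) and kept without zymosan replicate 3 (0.47, adjusted p = 0.00775).

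The lamp2 gene (ENSDARG00000014914, chr14:33473804-33481618, minus strand) varied less. Uninjected wild type read 43.3, 43.4 and 43.6 CPM, triple mutants 42.5, 40.0 and 40.3 CPM and rraga mutants 52.5, 51.6 and 49.4 CPM. After zymosan lamp2 was at 54.4, 36.0 and 42.2 CPM in wild type, a group that spread around the uninjected level, and at 54.8, 47.2 and 49.1 CPM in triple mutants, all above their uninjected group. Only rraga mutants against triple mutants was called (0.32 ± 0.12, adjusted p = 0.0465), and this call was lost when any 1 of the 6 libraries was left out (adjusted p from 0.0544 to 0.129), with RLE scaling (0.0511) and without the filter on low counts (0.0547). The log2 difference was 0.24 ± 0.12 for rraga mutants against wild type (adjusted p = 0.202) and 0.30 ± 0.12 for zymosan in triple mutants (adjusted p = 0.102). On chromosome 14, lamp2 lies 19.4 Mb from rraga. Of 26 tested genes within 0.5 Mb of lamp2, 15 were called in rraga against triple mutants (10 higher, 5 lower), a share of 57.7% beside 25.4% of all tested genes. Against wild type 6 of the 26 were called (3 higher, 3 lower), or 23.1% beside 14%. The 2 past 4-fold against triple mutants, named after their values were seen, were zdhhc24 (227 counts in rraga and 32 in triple mutants) and si:ch73-22o18.1 (67 and 4). The part of position in the lamp2 result was not tested.

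Sortilin, the product of sort1a, is a receptor that carries cargo from the Golgi to endosomes and lysosomes. The gene (ENSDARG00000029402, chr11:36280523-36341189, minus strand) was counted 50, 95 and 34 times in the uninjected wild-type libraries and 67, 58 and 73 times in those with zymosan. Triple mutants gave 5, 3 and 9 counts uninjected and 5, 1 and 9 with zymosan, and rraga mutants 149, 49 and 99. Every triple-mutant library was below every other library. Mean levels were 4.44 ± 2.36 CPM in uninjected wild type, 4.54 ± 0.701 with zymosan, 0.396 ± 0.258 and 0.361 ± 0.288 in uninjected and zymosan-injected triple mutants and 7.12 ± 3.53 in rraga mutants (SD, n = 3). Triple mutants were 11.5-fold below wild type without zymosan (-3.52 ± 0.55, adjusted p = 0.000109) and 12.4-fold below it with zymosan (-3.63 ± 0.56, adjusted p = 8.16e-05; -3.62 without wild-type replicate 3, adjusted p = 0.000162). The rraga mutants were 18.4-fold above triple mutants (4.20 ± 0.55, adjusted p = 4.89e-06), and against wild type, whose libraries they overlapped, the difference was 0.68 ± 0.42 (adjusted p = 0.323). Zymosan gave log2 values of 0.03 ± 0.43 in wild type and -0.08 ± 0.73 in triple mutants, the latter from 17 and 15 counts in all.

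The second zebrafish sortilin gene, sort1b on chromosome 8, had a different pattern. Uninjected wild type held 37.6 ± 0.132 CPM and uninjected triple mutants 37.4 ± 3.25 CPM, and after zymosan they held 25.3 ± 1.65 and 24.3 ± 1.34 CPM. It fell with zymosan in wild type (-0.57 ± 0.12, adjusted p = 0.00262) and in triple mutants (-0.62 ± 0.12, adjusted p = 0.000812). In rraga mutants, at 27.3 ± 4.47 CPM, it was lower than in wild type (-0.46 ± 0.12, adjusted p = 0.0105).

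Genes near sort1a were low in the same larvae. Of 12 tested genes whose start lay within 0.5 Mb of that of sort1a, 4 were lower in uninjected triple mutants, a share of 33.3% beside 9.77% of all tested genes, and none was higher. All 4 fell more than 4-fold, and their starts lay at -122.4 to -26.2 kb from that of sort1a. In uninjected wild type grm2b had 639 counts, rrp9 71, zgc:172270 31 and nfya 99. In uninjected triple mutants the same genes had 2, 0, 0 and 25 counts. The targeted genes tfeb and tfe3b lie on the same chromosome, 13.99 and 10.8 Mb from sort1a. Loss of the targeted factors and sequence carried with the mutant alleles on chromosome 11 cannot be told apart in these groups.

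Around spns1, on a chromosome with none of the targeted genes, 6 of 33 tested neighbours were lower in uninjected triple mutants (18.2%, beside 9.77% of all tested genes) and none was higher. Among them tspan10 had 170 counts in wild type and 15 in triple mutants, and fam173a 255 and 60. Of the 18 neighbours of npc2, 1 was called, zgc:92137 with 318 counts in wild type and 37 in triple mutants. Around the other called genes the shares were 2 of 19 for npc1, 1 of 21 for lamp1, 2 of 26 for lamp2 and 1 of 9 for scarb2a, none of them past 4-fold. Near cln3, which was itself not called, 4 of 21 were (2 higher and 2 lower, 19% beside 9.77%). Among the lower was RETSAT, with 73 counts in wild type and 0 in triple mutants and named after its values were seen. Whether position had a part in the spns1 result was not tested.

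**Figure D2:**
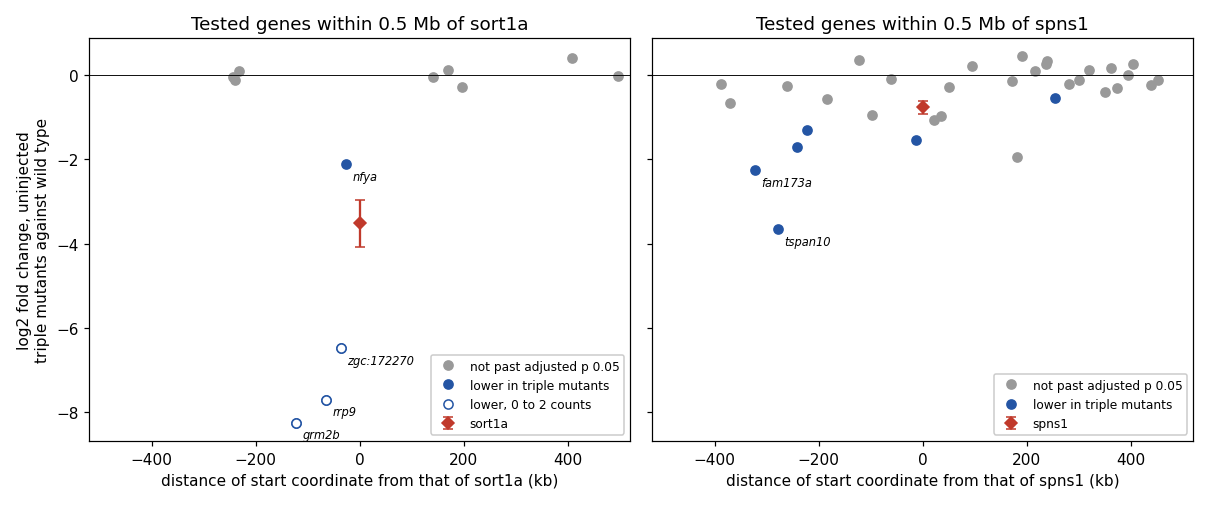
Log2 fold change of uninjected triple mutants against wild type (y axis) for tested genes within 0.5 Mb of sort1a (left) and spns1 (right), by distance in kb (x axis). Blue marks the 4 and 6 neighbours that were lower, open circles those with 0 to 2 counts in triple mutants, whose fitted values depend on the prior count and are no bounds; diamonds are sort1a and spns1 with their SE.

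Scarb2 is a membrane receptor that brings glucocerebrosidase, an enzyme of glycolipid digestion, to the lysosome. The gene scarb2a (ENSDARG00000098312, chr5:52844681-52862805, plus strand) ran opposite to npc2 among the uninjected groups. It was at 52.6, 46.5 and 38.0 CPM in wild type, against 57.5, 72.4 and 53.5 CPM in triple mutants and 36.6, 33.8 and 30.7 CPM in rraga mutants, and no library of one group fell within another. Triple mutants differed from wild type by a log2 value of 0.42 ± 0.16 (adjusted p = 0.11) and rraga mutants by -0.44 ± 0.16 (adjusted p = 0.0771), neither called. Without the filter on low counts both passed (adjusted p = 0.0313 and 0.0258), as they did in fits of the compared groups alone (0.0381 and 0.0264). The rraga mutants were 1.82-fold below triple mutants (-0.86 ± 0.16, adjusted p = 0.000408). After zymosan scarb2a was at 45.2, 48.1 and 71.8 CPM in wild type, beside 72.6, 70.6 and 54.2 CPM in triple mutants. The highest of these wild-type values was that of replicate 3, and without it triple mutants were higher (0.50, adjusted p = 0.0236; with it 0.26, adjusted p = 0.35).

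The cation channel gene mcoln1a (ENSDARG00000002285, chr1:45671687-45700574, plus strand) encodes Trpml1, which releases calcium from lysosomes. Its group means lay between 14.4 ± 1.62 CPM in rraga mutants and 21.4 ± 2.45 CPM in triple mutants with zymosan, and each group overlapped the next in order. Its log2 differences ran from -0.27 to 0.30, and none was called. The paralog mcoln1b was higher in triple mutants than in wild type after zymosan (0.75 ± 0.20, adjusted p = 0.014).

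The membrane protein Cln3 is the one whose loss causes juvenile Batten disease. The group means of cln3 (ENSDARG00000037865, chr3:39579393-39599339, plus strand) varied little, from 5.21 ± 0.882 to 6.33 ± 0.688 CPM in triple mutants with zymosan and uninjected wild type. Libraries of zymosan-injected wild type spread more, at 6.61 and 7.04 CPM and, in replicate 3, 3.34 CPM. The log2 differences of cln3 ran from -0.24 to -0.03, each with an SE of at least 0.25, and none was called. Each group held 219 to 278 counts, and the smallest difference that this depth and spread could detect was not tested.

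In uninjected triple mutants against wild type 2 of 9 were lower and none higher, while 5.84% of all tested genes were lower and 3.93% higher, 9.77% in all. Groups did not overlap for 4 lower genes (npc2, spns1, lamp2 and sort1a) and 1 higher (scarb2a), where 29% of all genes were apart. The median log2 value of the 9 was -0.08, beside 0 over all genes. Summed macrophage and microglia markers were lower in these triple mutants than in wild type (168.8 to 206.2 against 246.7 to 264.8 CPM), as were summed muscle markers (6325 to 8510 against 9085 to 10560 CPM) and summed lens markers (1512 to 1717 against 2108 to 2586 CPM). Summed enterocyte markers were lower too, at 106 to 138.5 against 141.1 to 156.1 CPM, with 0 of 5 called (median log2 value -0.24). The 1 erythrocyte marker found of 3 was higher, at 400.3 to 522.7 against 229.3 to 262 CPM. Of the tested markers 1 of 7 for macrophages (median log2 value of the 7 -0.00), 2 of 3 for muscle and 1 of 3 for lens were called lower, and the erythrocyte marker was called higher (0.97). The part of these cells in the results was not tested. After zymosan the same comparison called 2 of 9, both lower, beside 11.9% of all genes (5.21% higher, 6.66% lower), with medians of -0.12 and -0.01, and only spns1 and sort1a were apart, where 27% of genes were. Without wild-type replicate 3 the count was 4 of 9, with npc2 also lower and scarb2a higher, and 3163 of 19351 genes were called (1502 higher, 1661 lower) instead of 2255 of 19006. Between the zymosan-injected groups, enterocyte sums were lower in triple mutants (162.7 to 201.6 against 237.9 to 243.7 CPM, 1 of 5 called lower). Macrophage sums were lower (243.8 to 276.1 against 284.8 to 325.8 CPM, 0 of 7 called). Neuron sums were higher (1788 to 1865 against 1726 to 1754 CPM, 0 of 5 called), as was the erythrocyte marker (393.2 to 531.3 against 149 to 278.6 CPM, called). Summed muscle markers overlapped (6963 to 8476 against 8082 to 12050 CPM), with 2 of 3 called lower (median log2 value -0.59). Lens sums overlapped as well (1918 to 2145 against 2141 to 2998 CPM), with 1 of 3 called lower (median -0.34). Of 3 skin markers 1 was called higher and 1 lower. The part of these cells was not tested there either.

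Zymosan raised 3 of 9 in wild type (npc1, spns1 and lamp1) and lowered none. The background was 6.07% of genes higher and 3.83% lower, 9.9% in all, and the libraries of these 3 did not overlap, where 25.6% of genes were apart. The same 3 were called without wild-type zymosan replicate 3, beside 2201 of 19351 genes. Leaving out any other single library of these groups lost the call of lamp1 and mostly that of npc1, down to 1 of 9. In triple mutants 2 of 9 rose (spns1 and lamp1) and none fell, beside 7.64% of genes higher, 5.18% lower and 12.8% called. Those 2 and lamp2 were apart, where 31.7% of genes were. The median log2 response of the 9 was 0.10 in wild type and 0.17 in triple mutants, beside 0.00 over all genes in both. The interaction was called for 0 of 9 genes by edgeR, with 0 at an unadjusted p under 0.05 and 0 by DESeq2, beside 27 of 19006 genes or 0.142%. Without replicate 3 it was called for 0 of 9, beside 50 of 19351 genes. Larvae injected with zymosan also had higher summed enterocyte markers (5 of 5 found, none at 0). In wild type these were 237.9 to 243.7 CPM against 141.1 to 156.1 uninjected. Triple mutants had 162.7 to 201.6 CPM against 106 to 138.5. Of the 5 markers 2 were called higher in wild type and 1 in triple mutants, with medians of 0.02 and 0.25 on the log2 scale. Summed macrophage and microglia markers (10 of 12 found, none at 0) were 284.8 to 325.8 against 246.7 to 264.8 CPM and 243.8 to 276.1 against 168.8 to 206.2 CPM. Of 7 tested markers 1 was called higher in each genotype and none lower, and their median log2 value was -0.45 in wild type, opposite to the sum, and 0.38 in triple mutants. Summed neutrophil markers were higher too, at 30.98 to 39.21 against 28.48 to 29.18 CPM in wild type. In triple mutants they were at 37.58 to 47.94 against 26.19 to 37.25 CPM (7 genes found, 1 at 0 in zymosan-injected triple mutants). Of 6 tested, 2 were called higher and 2 lower in wild type, and 3 higher and 2 lower in triple mutants. Their median log2 values were 0.15 and 1.17. The part of these cells in the responses was not tested.

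**Figure D3:**
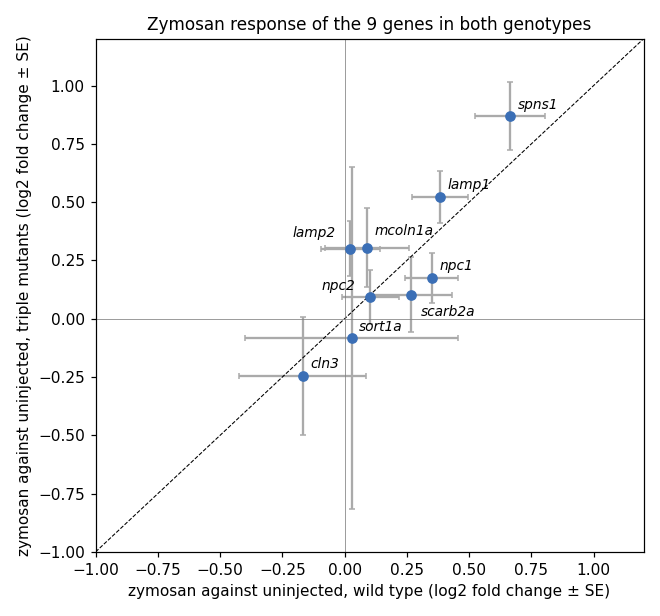
Log2 fold change with zymosan in triple mutants (y axis) against that in wild type (x axis) for the 9 genes, with SE bars and a dashed line of equal response. The highest points in both genotypes are spns1 and lamp1, and the widest bars are those of sort1a.

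In rraga mutants against wild type 1 of 9 was called, npc2, beside 7.58% of genes higher, 6.41% lower and 14% in all. Groups did not overlap for npc2, spns1 and lamp2, which were higher, and scarb2a, which was lower, while 31.9% of all genes were apart. Against triple mutants 4 were higher (npc2, spns1, lamp2 and sort1a) and 1 lower (scarb2a), beside 13.9% and 11.5% of genes and 25.4% in all. The same 5 were apart, where 39.2% of genes were. The median of the 9 was 0.15 against wild type and 0.23 against triple mutants. Both comparisons share the rraga libraries. Summed macrophage and microglia markers stood at 425.2 to 452.7 CPM in rraga mutants, above all other groups, and summed enterocyte markers at 221.5 to 278.4 CPM, above those of the other uninjected groups. Summed neuron markers were lowest in rraga mutants, at 1390 to 1456 CPM against 1596 to 1815 CPM in the other uninjected groups. Of the 7 tested macrophage markers 1 was called higher against wild type and of the 5 enterocyte markers 3. The medians of these lists were 0.80 and 0.69 on the log2 scale. Summed neutrophil markers were also higher, at 46.09 to 55.8 against 28.48 to 29.18 CPM in wild type, with 4 of 6 tested called higher (median 1.04). The erythrocyte marker, at 466.4 to 484.1 against 229.3 to 262 CPM, was called higher as well, and 2 of 5 neuron markers were called lower. Against wild type summed radial glia markers were lower, at 1835 to 1886 against 1979 to 2256 CPM, with 1 of 3 called lower. Summed lens markers were lower too, at 1640 to 1979 against 2108 to 2586 CPM, with 0 of 3 called. Summed hepatocyte markers were higher, at 1849 to 2148 against 1405 to 1759 CPM, with 1 of 5 called in each direction. Their median log2 value was -0.24, opposite to the sum. Of 3 skin markers 1 was called higher against wild type (median 0.66). Against triple mutants 3 of 5 enterocyte (median 1.14), 2 of 7 macrophage (0.84), 4 of 6 neutrophil (1.02) and 2 of 3 skin markers (0.42) were called higher. Called lower there were 3 of 5 neuron markers (-0.35) and 1 of 3 radial glia markers (-0.18). Muscle had 1 of 3 called higher, and hepatocytes 2 of 5 in each direction. The part of these cells in the results of rraga mutants was not tested.

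**Figure D4:**
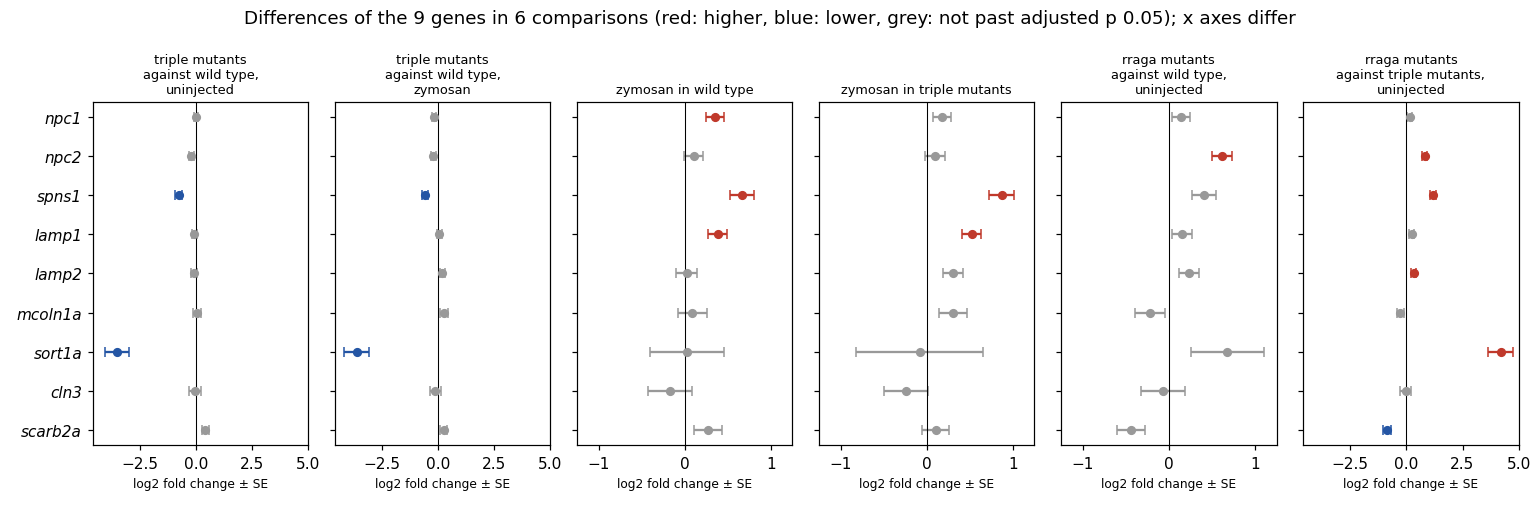
Log2 fold change ± SE of the 9 genes (x axes, which differ in range) in 6 comparisons, with genes in rows. Red and blue points passed an adjusted p of 0.05; sort1a and spns1 are blue in both comparisons of triple mutants with wild type, and npc2 is the only red point for rraga mutants against wild type.

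The 9 genes did not follow a common pattern over the 15 libraries. Over their 36 pairs Pearson's r of log2 CPM ranged from -0.875 for npc2 and scarb2a to 0.738 for npc1 and lamp1, with a median of 0.0965 and 20 pairs above 0. These libraries share their groups, so the values describe the group pattern as much as single libraries. The closest genes outside the 9 were picked from all tested genes with a mean log2 CPM above 1. Their r values cannot be set against those between members, which come from far fewer pairs. The glycogenin gene gyg1b (r = 0.974) and the dehydrogenase gene ogdha (0.963) were among those with patterns most like npc2. Most like sort1a were tspan36 (0.963), the phosphofructokinase gene pfkma (0.959) and the lysosomal nuclease gene dnase2 (0.958). For spns1 they were tmem176l.3a (0.964), chmp4bb (0.953), which encodes a subunit of the membrane-cutting ESCRT machinery, and etfa (0.953). The gene most like scarb2a was the Wnt effector gene tcf7l2 (0.963). For lamp1, npc1 and lamp2 the best values were lower, 0.916 with txn2, 0.868 with ddx39b and 0.816 with nol12.

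Other genes of the same functions were taken from a list of 97 symbols, of which 76 were found in the tables and 72 were tested. In uninjected triple mutants against wild type 2 of 72 were higher and 1 lower, against the background of 9.77%. The chloride-proton exchanger gene clcn3 rose 4.50-fold (2.17 ± 0.27, adjusted p = 3.94e-06), from 9.33 ± 2.83 to 41.5 ± 5.79 CPM. The membrane protein gene laptm4a rose (0.38 ± 0.12, adjusted p = 0.0369) and the phosphoinositide phosphatase gene pip4p2 fell by 0.91 ± 0.27 on the log2 scale (adjusted p = 0.0376). When single libraries were left out, 1 or 2 of the 72 were called, and 1 without triple-mutant replicate 2 or wild-type replicate 2 or 3. After zymosan clcn3 was again higher in triple mutants (2.08 ± 0.26, adjusted p = 4.48e-06), with laptm4a, mcoln1b and plekhm1, a gene of lysosome fusion (0.91 ± 0.23, adjusted p = 0.00918). Lower were tmem106bb (-0.68 ± 0.16, adjusted p = 0.0054) and vps41 (-0.67 ± 0.14, adjusted p = 0.00266), a subunit of the HOPS tether that docks vesicles to lysosomes. Without wild-type zymosan replicate 3 all 6 of these calls held, and 3 more made 9 of 72 (5 higher, 4 lower).

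Zymosan raised 3 of the 72 and lowered 3 in wild type, and raised 5 and lowered 2 in triple mutants, beside backgrounds of 9.9% and 12.8%. The membrane protein gene tmem106ba rose from 29.6 ± 2.88 to 72.3 ± 9.57 CPM in wild type (1.29 ± 0.16, adjusted p = 4.73e-06) and, in triple mutants, from 26.3 ± 2.25 to 71.3 ± 4.30 CPM (1.44 ± 0.16, adjusted p = 6.61e-07). The haem transporter gene slc48a1a rose 2.20-fold and 2.09-fold (adjusted p = 5.19e-05 and 6.1e-05), and the nucleoside transporter gene slc29a3 1.63-fold and 1.48-fold (adjusted p = 0.00319 and 0.0133). Without wild-type zymosan replicate 3 the 6 calls in wild type held and 2 more were made, 8 of 72 (4 higher, 4 lower). Besides sort1b, wild type had lower igf2r (-0.68 ± 0.22, adjusted p = 0.0498; without replicate 3 -1.05, adjusted p = 0.00177), a mannose 6-phosphate receptor gene, and lower tpcn1 (-0.65 ± 0.16, adjusted p = 0.0106), an endolysosomal cation channel gene. In triple mutants the adaptor genes ap1m2 and ap3m1 rose and fell by log2 values of 0.56 ± 0.16 and -0.70 ± 0.18 (adjusted p = 0.0181 and 0.0124). There sidt2 also rose (0.49 ± 0.12, adjusted p = 0.00635), a gene named after its value was seen. The interaction was called for 0 of 72, with 1 at an unadjusted p under 0.05 and 0 by DESeq2.

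In rraga mutants the list moved more often. It was chosen with earlier results of these data known, so its shares beside those of all genes are description only. Against wild type 19 of 72 were higher and 2 lower, where 7.58% and 6.41% of all genes were, and the median log2 value of the list was 0.31 beside 0.00 over all genes. Against triple mutants 25 were higher and 3 lower, where 13.9% and 11.5% were, with a median of 0.31. Of these, 15 genes were higher in both comparisons, which share the rraga libraries. By function, against wild type, 5 of 18 small-molecule transporters were higher, 4 of 14 genes of tethering, retrieval and positioning, 4 of 7 of sorting receptors and the mannose 6-phosphate route, 3 of 15 membrane proteins, 2 of 9 ion channels and 1 of 9 coat adaptors. The peptide and histidine transporter gene slc15a4 rose from 2.89 ± 0.173 to 7.66 ± 1.04 CPM (1.40 ± 0.26, adjusted p = 0.000697). The gene nagpa, whose enzyme uncovers the mannose 6-phosphate tag, rose 2.35-fold (adjusted p = 0.00396), clcn3 2.31-fold (adjusted p = 0.00346) and the transporter gene mfsd1 2.14-fold (adjusted p = 0.0018). Lower were sort1b and the ion channel gene tmem175 (-2.36 ± 0.65, adjusted p = 0.0164), the latter below the level set for named genes and named after its value was seen. Against triple mutants pip4p2 (2.30-fold), arl8bb (2.24-fold), a GTPase gene of lysosome movement, mfsd12a (2.18-fold) and nagpa (2.09-fold) were higher. In the same comparison clcn3 (-0.96 ± 0.25, adjusted p = 0.00602), sort1b and tmem175 were lower. The gene arl8bb lies on chromosome 11, as do tfeb, tfe3b and sort1a, and the part of position in its difference was not tested.

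**Figure D5:**
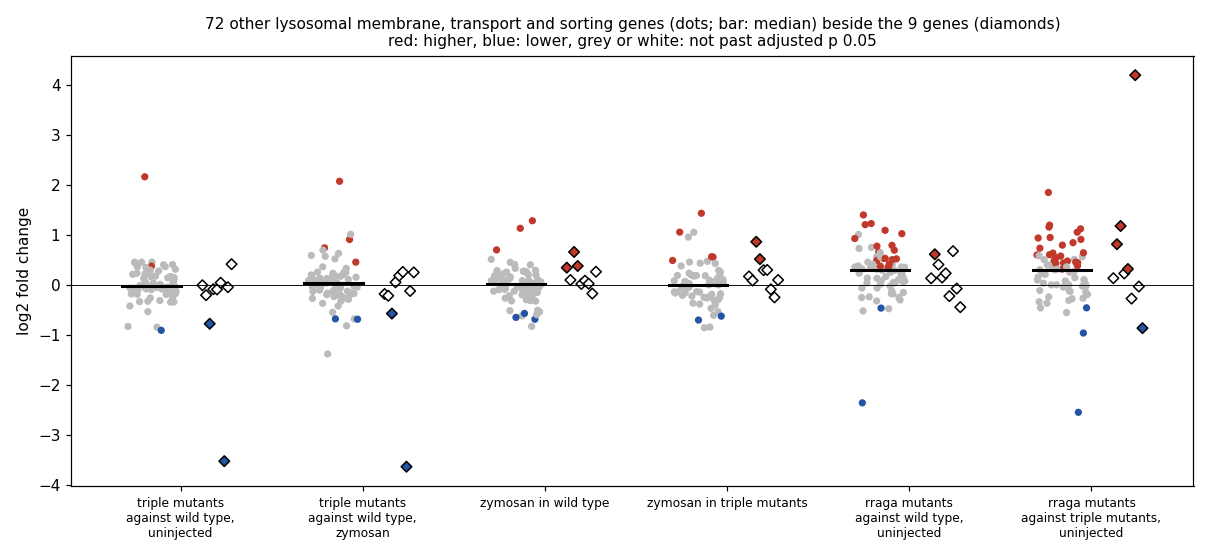
Log2 fold change (y axis) of the 72 other tested genes (dots, with a bar at their median) and of the 9 genes (diamonds) in 6 comparisons (x axis). Red and blue passed an adjusted p of 0.05; the medians of the 72 lie at 0.31 in both comparisons of rraga mutants and between -0.02 and 0.04 in the other 4.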

How the data were processed

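Libraries of total larval RNA came from the NEBNext Ultra II kit, per the labels. Per the submitters' processing notes, HISAT2 2.0.5, StringTie 1.3.3b, featureCounts 1.5.0 and the GRCz11 build were used. The strand setting of counting is not given there, so reads of antisense and overlapping genes cannot be told apart. The authors deposited raw counts per gene in 3 tables of 6 libraries, together with scaled values, FPKM and gene lengths. Only the deposited counts and lengths were used. The tables were joined by gene identifier into 24609 genes, 22086 of them in all tables, and a gene missing from a table was set to 0. Uninjected wild-type counts stand in 2 tables and were identical for 22631 genes. Replicates are those of the labels, which call them biological, and p-values reflect only the spread among them.

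Counts were filtered with filterByExpr, scaled with TMM (factors 0.8502 to 1.187) and fitted with edgeR 4.0.16 in R 4.3.3 (glmQLFit and glmQLFTest, limma 3.58.1, common biological coefficient of variation 0.165), with 1 mean per group over all 15 libraries and 7 contrasts. P-values were adjusted by Benjamini-Hochberg over 19006 genes, and SE came from the F statistic. The fit was also run on counts with known changes, simulated from the spread estimated in these data. Such counts cannot show how it handles outlying libraries, and the outcome is not given here. Counts carry no molecular identifiers, so a count is not a number of independent molecules. Replicate number was left out because nothing in the labels says that a number marks a shared clutch or day. Same-numbered samples of compared groups did not deviate together (r from -0.101 to 0.0583). Alternatives were DESeq2 1.42.0, RLE scaling (DESeq2's size factors), no low-count filter, a replicate block, a fit of the compared groups alone and each library left out.

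The 9 genes, the list of 97 symbols, the markers and the rules for named genes were chosen with earlier results of these data known. From the list, up to 4 called genes per contrast and direction with the largest change and a mean log2 CPM above 1 are named. Likeness is Pearson's r of log2 CPM over 15 libraries for the 3 highest genes, 1 of which is not reported here. Tested genes starting within 0.5 Mb of a called member are its neighbours; those called past 4-fold in uninjected triple mutants against wild type are named (at most 4 per gene).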

Additional observations from a re-analysis of the deposited data

How the results depend on the processing

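Of 746 member values recomputed under alternatives, 669 kept direction and side of the threshold, 20 lost a call, 8 gained one and 49 changed sign, none of these with a call before or after. Of 15 called values, 11 kept their call under every alternative; npc1 and lamp1 with zymosan in wild type, spns1 in triple mutants against wild type after zymosan and lamp2 in rraga against triple mutants did not, and the cause was not tested. The number of the 9 genes called in rraga mutants against wild type rose from 1 to 2 with no low-count filter and to 2 with only the groups compared. Leaving out 1 library gave 1 to 2 there, 1 to 4 in triple mutants against wild type after zymosan (4 without wild-type replicate 3, where 3163 of all genes were called instead of 2255), 1 to 3 for zymosan in wild type, and 1 to 2 of the other list in uninjected triple mutants against wild type. The replicate block changed no call of the 9 genes (2 called in uninjected triple mutants against wild type, as without the block). The log2 value of npc1 there, -0.0016, became 0.0039 with RLE scaling, 0.0080 with no filter, 0.00020 with the block, 0.0021 with only the groups compared and 0.0035 with DESeq2; sort1a with zymosan in wild type became -0.045 with the block. Leaving out 1 library gave, for uninjected triple mutants against wild type, -0.055 to 0.079 for npc1, -0.15 to 0.022 for lamp1, -0.12 to 0.15 for mcoln1a and -0.12 to 0.10 for cln3. After zymosan the same difference ran from -0.030 to 0.16 for lamp1 and from -0.39 to 0.088 for cln3. For zymosan in wild type it ran from -0.021 to 0.23 for npc2, -0.15 to 0.15 for lamp2, -0.12 to 0.20 for mcoln1a, -0.19 to 0.55 for sort1a and -0.37 to 0.11 for cln3, and in triple mutants from -0.80 to 0.51 for sort1a. The interaction ran from -0.14 to 0.11 for npc2, -0.82 to 0.48 for sort1a, -0.35 to 0.12 for cln3 and -0.28 to 0.075 for scarb2a. For cln3 the rraga difference ran from -0.15 to 0.0027 against wild type and from -0.17 to 0.049 against triple mutants. With only the groups compared, sort1a was filtered out for zymosan in triple mutants and gave no value.

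Depth limits sort1a most, with 15 to 17 counts in each triple-mutant group. Copies of near-identical sequence and antisense reads were not separable, 3 libraries per group leave small differences undetected, and no group separates injection from zymosan.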
